A study of Mus musculus with 6 samples.

Results

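The interferon-induced genes described here are 35 genes that cells switch on after sensing interferon, chosen as a list of named genes. Each matched exactly 1 of the 31054 features of the deposited matrix. In 31 of them the transcript level is usually low until interferon acts. The other 4, Ifitm1, Ifitm2, Ifitm3 and Ifitm6, encode membrane proteins that many cells also make without interferon, and they were kept apart. Within the 31 genes, 6 strongly inducible ones (Ifit1, Ifit2, Ifit3, Ifit3b, Isg15 and Rsad2) are called set A and the remaining 25 set B.

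Type I interferons, secreted by cells that detect foreign or misplaced nucleic acid, bind the receptor formed by Ifnar1 and Ifnar2. The kinases Jak1 and Tyk2 then activate transcription factors, among them Stat2 with Irf9, that bind a promoter element known as the interferon-stimulated response element (ISRE). The induced proteins block viral RNA, membranes and assembly, and some of them (Irf7, the sensors, Usp18) feed back on the response. Macrophages and monocytes are known to hold a weak tonic form of this response without infection.

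The labels describe 6 samples in 3 groups of 2. Cx3cr1CreER; R26tdTomato embryos received 4-hydroxytamoxifen at E9.5, so that Cre, driven from Cx3cr1, marked cells and their descendants with tdTomato. Csf1r-Mer-iCre-Mer; Csf1r-EGFP; R26tdTomato embryos, whose Cre is driven from the Csf1r promoter, received the drug at E8.5. Macrophage and monocyte lineage cells were taken from both kinds of embryo at E14.5, and total bone marrow came from wildtype C57BL/6 mice aged 2 months that did not receive the drug. The deposited cells fall into 4 numbered libraries, and nothing in the labels ties a library to one of the 6 samples. The labels therefore do not give the genotype and age of a cell. The tdTomato transcript was found in every library, in 28.4 to 47.4% of the Mrc1 macrophage-like cells defined below. The wildtype marrow mice carry no such reporter, so each library held cells of reporter embryos. The deposited matrix is named after Cx3cr1 and Csf1r, and its name does not mention bone marrow. Whether adult cells are also included was not tested. All cells count as 1 sample, no test between groups was possible, and the spread over libraries stands in its place.

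After filtering, 34587 of 39048 cells remained, 8369, 7063, 7196 and 11959 in libraries 1 to 4, with a median of 13077 to 14956.5 unique molecular identifiers (UMIs, 1 per captured transcript) per cell. Cell classes were gated on pairs of marker genes that include no interferon-induced gene, and 17843 cells passed exactly 1 gate. Cells that passed the gate on Csf1r and Ccr2 but not that on Csf1r and Ly6c2 are called Ccr2 monocyte-like (4000 cells). A cell with fewer than the 2 Ly6c2 UMIs that the gate needs can be among them. Those with Csf1r and Ly6c2 are called Ly6c2 monocyte-like (1802 cells), and those with Csf1r and Mrc1 are called Mrc1 macrophage-like (6590 cells). Of 3 to 6 further markers checked per class, at least 3 were 2-fold or more above all other cells in each of the 19 classes, and all of them in 16 classes. In Ccr2 monocyte-like cells 3 of 6 passed (Plac8, S100a4 and Cd52), and Fn1 was lower, at 16.9 CPM against 21.7 CPM in other cells. In Ly6c2 monocyte-like cells 4 of 6 passed, and Chil3 was nearly absent, at 0.129 CPM against 6.78 CPM. In lymphoid progenitor-like cells 3 of 4 passed, and Dntt had 0 UMIs. The makeup differed between libraries: library 1 held 5 neutrophil-like and library 2 held 4, against 272 in library 3. Levels are UMIs per 1000000 UMIs of the class (CPM), with exact Poisson 95% intervals, and shares carry exact Clopper-Pearson 95% intervals; both cover counting error only.

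The promoters of set A show the element through which these genes are known to respond. RefSeq promoters (GRCm38.p6, from 250 bases before to 50 after the gene start) were given for 29 of the 35 genes and searched on both strands for the ISRE core, which reads GAAA, any 2 bases and GAAA again. It was found in 15 of the 29 genes, 51.7%, against 3.99% of all 27025 genes with a promoter. In set A it was found in 5 of 6 genes, in set B in 8 of the 19 with a promoter and in the Ifitm genes in 2 of 4. The core TTCNNNGAA of the gamma-activated site (GAS), another interferon response element, was found in 7 of the 29 genes, 24.1%, against 9.55% of all. A match is a run of letters, not a measured binding site. The stretches around the ISRE cores of 4 set A genes and of Ifitm3 are printed 5′ to 3′ along the gene, with the core matches in capitals, because these genes carry the uneven signal described further on.
Ifit1: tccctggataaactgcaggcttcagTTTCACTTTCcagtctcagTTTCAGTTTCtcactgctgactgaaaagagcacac
Ifit3: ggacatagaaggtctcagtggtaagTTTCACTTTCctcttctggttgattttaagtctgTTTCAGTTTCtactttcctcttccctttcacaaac
Isg15: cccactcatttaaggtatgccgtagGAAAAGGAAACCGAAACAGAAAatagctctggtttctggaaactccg
Rsad2: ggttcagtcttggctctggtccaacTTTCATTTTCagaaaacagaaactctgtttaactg
Ifitm3: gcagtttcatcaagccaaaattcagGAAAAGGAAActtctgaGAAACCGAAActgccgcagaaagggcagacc

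The Ifit1 stretch is chr19:34640760-34640838 on the plus strand, and the Ifit3 stretch is chr19:34583348-34583441, also on the plus strand. The Ifit3b stretch, chr19:34607744-34607837, is the same as that of Ifit3 over all 94 bases. The stretch of Isg15, chr4:156200850-156200921 on the minus strand, holds 3 cores that overlap one another by their ends. Rsad2 (chr12:26456538-26456597, minus strand) holds 1 core and Ifitm3 (chr7:141010695-141010767, minus strand) holds 2. Many of the genes are neighbours. Ifit2, Ifit3, Ifit3b and Ifit1 lie together on chromosome 19, Oas2, Oas3 and Oas1a as well as Oasl2 and Oasl1 on chromosome 5, Slfn5, Slfn2 and Slfn1 on chromosome 11, and the 4 Ifitm genes within the same stretch of chromosome 7 as Irf7. All 35 are protein-coding.

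Similar copies limit some single values. Of the 60-base words in the last 500 bases of the Oas1a transcript, 51.2% also occur in Oas1g, 38.3% of those of Ifitm2 occur in another annotated gene, and 12.9% of those of Ifit3 occur in Ifit3b. Reads from such stretches cannot be told apart, so these levels are uncertain.

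The 31 genes were most abundant in monocyte-like and macrophage-like cells. Summed over the list, Ccr2 monocyte-like cells had 1835 CPM, Ly6c2 monocyte-like cells 1641 CPM, Kupffer cell-like cells 1565 CPM, Mrc1 macrophage-like cells 1326 CPM and dendritic cell-like cells 1257 CPM. Neighbours in that order overlapped between libraries: the library values ran over 1332 to 2183 CPM in Ccr2 monocyte-like cells, 1450 to 1914 CPM in Ly6c2 monocyte-like cells, 1250 to 1732 CPM in Kupffer cell-like cells, 1124 to 1415 CPM in Mrc1 macrophage-like cells and 1118 to 1415 CPM in dendritic cell-like cells. Plasmacytoid dendritic cell-like cells, with only 47 cells, had 1068 CPM. Microglia-like cells had 709 CPM, with library values of 545 to 799 CPM, all under those of the classes above.

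The other classes with at least 50 cells were lower still. Endothelial cell-like cells had 673 CPM, a range of 607 to 801 CPM that overlapped microglia-like cells. Neutrophil-like cells had 568 CPM and granulocyte-monocyte progenitor-like cells 363 CPM. Osteoclast-like cells, gated on Ctsk and Acp5, had 329 CPM in 60 cells, with 240 to 333 CPM in the 3 libraries that held at least 10 of them. Their level lay below every library value of the monocyte-like and macrophage-like classes. Mast cell or basophil-like cells had 163 CPM and erythroid cell-like cells 158 CPM, the lowest of the 17 classes with at least 50 cells. In these pooled sums, fewer responding cells and less RNA per cell cannot be told apart; the values per cell follow below.

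**Figure D1:**
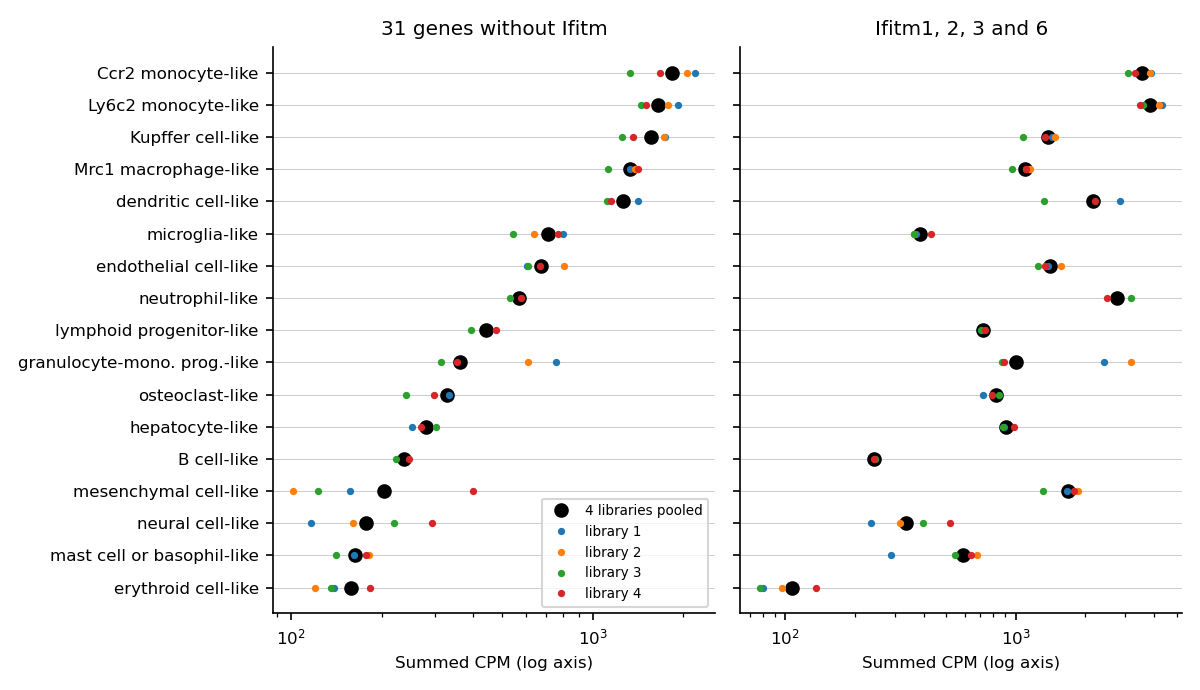
Summed level of the 31 genes (left) and of the 4 Ifitm genes (right) in each class of at least 50 cells; the x axis is CPM on a log axis, black points are all 4 libraries pooled and coloured points are single libraries with at least 10 cells of the class. The 31 genes run down to 158 CPM in erythroid cell-like cells, against 1835 CPM in Ccr2 monocyte-like cells.

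A few genes made up much of the sum. Bst2, which encodes tetherin, a protein that holds budding virus on the cell surface, gave 16.3% of the list's UMIs in Ccr2 monocyte-like cells and 33.6% in Mrc1 macrophage-like cells. Slfn2, a Schlafen gene known in mice for keeping T cells and monocytes quiescent, gave 21.4% in Ccr2 monocyte-like cells and 15.0% in Mrc1 macrophage-like cells. The list of plasmacytoid dendritic cell-like cells was 68.8% Bst2, and their set A sum was only 14.9 CPM. In endothelial cell-like cells Bst2 gave 52.1%. Set A was more restricted: it summed to 202 CPM in Ccr2 monocyte-like cells, 165 CPM in Kupffer cell-like cells, 156 CPM in Ly6c2 monocyte-like cells and 134 CPM in Mrc1 macrophage-like cells, against 6.17 CPM in granulocyte-monocyte progenitor-like cells and 5.75 CPM in erythroid cell-like cells.

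Gene by gene, 15 of the 35 were highest in Ccr2 monocyte-like cells, 7 in Kupffer cell-like, 4 in Ly6c2 monocyte-like, 4 in dendritic cell-like and 1 in Mrc1 macrophage-like cells. Of the remaining 4, each was highest outside these classes. Slfn1 measured 75.03 CPM in neutrophil-like cells, against 39.5 CPM in Ly6c2 monocyte-like cells, the next class. Ifitm6 measured 2293 CPM in neutrophil-like cells and 341 CPM in Ly6c2 monocyte-like cells. Ifitm2 was highest in mesenchymal cell-like cells (1286 CPM), and Isg20, an RNA-degrading exonuclease, in erythroid cell-like cells (18.7 CPM). Neutrophil-like cells thus held 2 of the highest single levels while their set A sum was 18.1 CPM, beside 202 CPM in Ccr2 monocyte-like cells. Some leads were near ties, such as Irf9 at 41.6 CPM in Ccr2 and 41.0 CPM in Ly6c2 monocyte-like cells. Ifi44 led in Kupffer cell-like cells at only 3.16 CPM. The share of all features highest in each class was not counted, so this tally is a description.

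**Figure D2:**
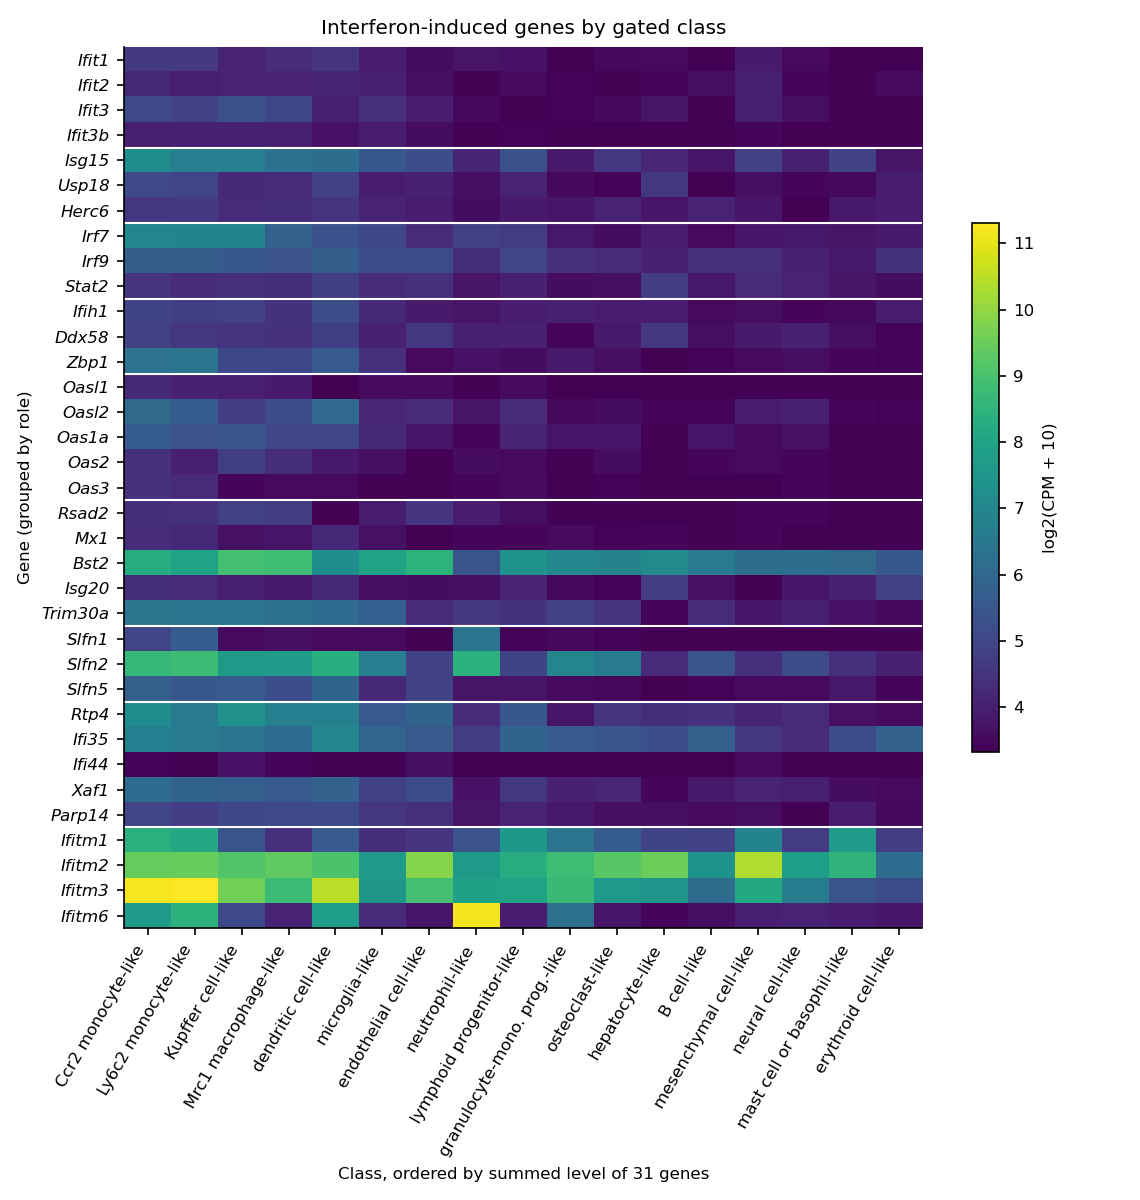
Level of each of the 35 genes (rows, grouped by role, the white lines separating roles) in each class of at least 50 cells (columns), as log2(CPM + 10). The columns are ordered by the summed level of the 31 genes; Bst2, Slfn2 and the Ifitm genes stand out, and Ifitm6 is brightest in neutrophil-like cells at 2293 CPM.

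Monocyte-like cells were set against macrophage-like cells, the 2 kinds of cell named in the sampling of the embryos. Summed over the 31 genes, Ccr2 monocyte-like cells exceeded Mrc1 macrophage-like cells by a log2 ratio of 0.47 (interval 0.46 to 0.48), with library values of 0.24 to 0.72. Ly6c2 monocyte-like cells exceeded them by 0.31 (0.29 to 0.32), with library values of 0.09 to 0.53. The direction was the same in each of the 4 libraries, but the size differed between libraries by more than the counting error. Without Bst2 and Slfn2, a choice made after the values were seen, the log2 ratios were 0.75 and 0.51.

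Few single genes passed 2-fold. On the log2(CPM + 10) scale, 3 of the 31 genes were at least 2-fold higher in Ccr2 monocyte-like cells and none was 2-fold lower. Of all features with a UMI, 1.02% were 2-fold higher and 1.97% 2-fold lower. A feature under 10 CPM in both classes cannot pass 2-fold on this scale. Of features with at least 10 CPM in either class, 2.72% were 2-fold higher and 5.29% 2-fold lower. Of the 31 genes, 27 were at that level, among them the 3. The median log2 difference over the 31 genes was 0.44, against -0.005 over all features with a UMI. Of the 31, 20 were higher in Ccr2 monocyte-like cells in all 4 libraries, 2 (Bst2 and Parp14) were lower in all 4, and 9 were mixed. The share of all features with the same direction in all 4 libraries was not counted, so these counts are a description. In Ly6c2 monocyte-like cells 4 of the 31 were at least 2-fold higher and none was lower, beside 1.65% and 2.63% of all features with a UMI. The median log2 difference there was 0.29, against -0.008 over all features with a UMI. Both comparisons share the Mrc1 macrophage-like cells.

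Among the factors, Irf7, which drives the production of type I interferons, measured 148, 128.5, 84.1 and 116.7 CPM in Ccr2 monocyte-like cells of libraries 1 to 4, and 46.5, 47.0, 34.7 and 57.6 CPM in Mrc1 macrophage-like cells. The 2 classes did not overlap, and the pooled log2 difference was 1.20. In Ly6c2 monocyte-like cells Irf7 measured 127, 117.3, 106 and 102 CPM. Irf9 and Stat2, which act together at the response element, differed less: the log2 differences of Ccr2 monocyte-like from Mrc1 macrophage-like cells were 0.31 and 0.15.

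Among the sensors, Zbp1, which senses left-handed nucleic acid and can start necroptosis, measured 92.0, 85.4, 43.3 and 65.6 CPM in Ccr2 monocyte-like cells, and 23.4, 22.7, 17.7 and 28.3 CPM in Mrc1 macrophage-like cells. The lowest monocyte-like library was above the highest macrophage-like library, and the log2 difference was 1.31. The RNA sensors Ifih1 (MDA5) and Ddx58 (RIG-I) had log2 differences of 0.44 and 0.42. For Ddx58 the difference was close to 0 in 1 library (-0.02).

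The ISG15 pathway attaches the small protein ISG15 to other proteins, a step that Herc6 carries out in mice and Usp18 reverses. Isg15 measured 180, 141, 80.3 and 131 CPM in Ccr2 monocyte-like cells, and 71.6, 74.3, 46.2 and 82.0 CPM in Mrc1 macrophage-like cells. The ranges touch, since the lowest monocyte-like library (80.3 CPM) was below the highest macrophage-like one, but within each library Isg15 was higher in the monocyte-like cells. The log2 differences were 0.87 for Isg15, 0.78 for Usp18 and 0.21 for Herc6.

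The Ifit proteins bind foreign RNA. As pooled CPM, Ifit1 had 15.7 CPM in Ccr2 monocyte-like and 10.3 CPM in Mrc1 macrophage-like cells, a ratio of 1.52. The others were closer: Ifit2 had 8.59 and 7.26 CPM, Ifit3 24.2 and 23.1 CPM, and Ifit3b 6.4 and 6.33 CPM. Each changed direction between libraries. Ifit3 measured 36.9, 33.1, 7.96 and 15.9 CPM in Ccr2 monocyte-like cells of libraries 1 to 4, against 22.7, 28.8, 17.4 and 21.9 CPM in Mrc1 macrophage-like cells, so that it was higher in libraries 1 and 2 and lower in libraries 3 and 4.

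Most active OAS enzymes make a small messenger that switches on RNase L, an activity that mouse Oasl1 is known to lack. Oasl2 had a log2 difference of 0.94, Oas3 of 0.91, Oas1a of 0.62, Oasl1 of 0.33 and Oas2 of 0.10. Oas3 was the lowest of them in Mrc1 macrophage-like cells, at 1.67 CPM, against 11.9 CPM in Ccr2 monocyte-like cells, a ratio of 7.11 in CPM, larger than on the log2(CPM + 10) scale. The restriction factors differed in direction. Bst2 measured 324, 301, 249 and 306 CPM in Ccr2 monocyte-like cells, and 463, 469, 369 and 456 CPM in Mrc1 macrophage-like cells. It was lower in the monocyte-like cells of every library, with a log2 difference of -0.56, and of -0.89 in Ly6c2 monocyte-like cells. Rsad2 (viperin, an antiviral radical enzyme) had 10.6 CPM in Ccr2 monocyte-like and 16.2 CPM in Mrc1 macrophage-like cells and was lower in 3 of 4 libraries. Mx1 had a log2 difference of 0.57, Isg20 of 0.49 and Trim30a of 0.27.

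Of the Schlafen genes, Slfn1 measured 23.7, 26.0, 16.8 and 19.5 CPM in Ccr2 monocyte-like cells, 40.9, 42.2, 40.5 and 36.9 CPM in Ly6c2 monocyte-like cells, and 2.49, 3.08, 1.48 and 3.24 CPM in Mrc1 macrophage-like cells. The 3 classes did not overlap, and the log2 differences from Mrc1 macrophage-like cells were 1.32 and 1.97. Slfn2 had log2 differences of 0.94 in Ccr2 and 1.09 in Ly6c2 monocyte-like cells, and Slfn5 of 0.50 and 0.25. The Ly6c2 count of 4 consists of Irf7, Zbp1, Slfn1 and Slfn2. Of the remaining genes, Ifi35, Xaf1 and Rtp4 had log2 differences of 0.64, 0.58 and 0.44 in Ccr2 monocyte-like cells, Parp14 of -0.11, and Ifi44 was under 1 CPM in both classes.

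The Ifitm genes differed far more than the 31. They summed to 3548 CPM in Ccr2 monocyte-like, 3828 CPM in Ly6c2 monocyte-like and 1094 CPM in Mrc1 macrophage-like cells. Ifitm3, which blocks virus entry at endosomes, measured 2513, 2454, 2055 and 2301 CPM in Ccr2 monocyte-like cells, and 423, 420, 355 and 483 CPM in Mrc1 macrophage-like cells. Ifitm1 had 322 CPM in Ccr2 monocyte-like and 11.7 CPM in Mrc1 macrophage-like cells, with a log2 difference of 3.93, and Ifitm6 had 198 and 7.36 CPM, with a log2 difference of 3.58. Ifitm2 had 680 CPM in Ccr2 monocyte-like and 649 CPM in Mrc1 macrophage-like cells, with a log2 difference of 0.07 and a change of direction between libraries. Over all 35 genes, 6 were thus at least 2-fold higher in Ccr2 monocyte-like cells, and 3 of the 6 were Ifitm genes. With 1 CPM added in place of 10 CPM, the count was 11. The share of all features past 2-fold was not counted on that scale, so the shares above do not apply to it.

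**Figure D3:**
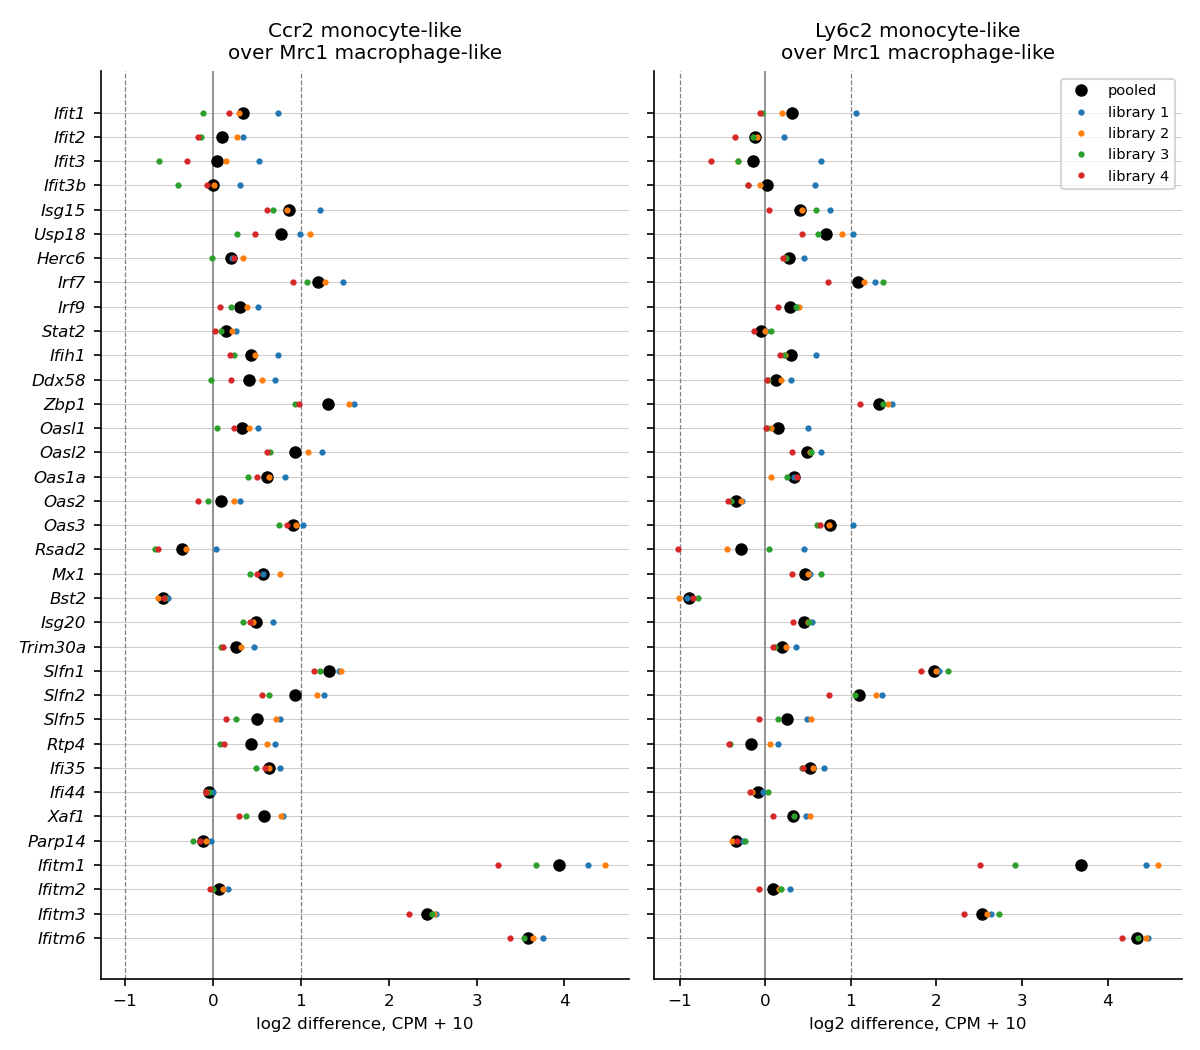
Log2 difference per gene on the log2(CPM + 10) scale, Ccr2 monocyte-like (left) and Ly6c2 monocyte-like cells (right) over Mrc1 macrophage-like cells; black points are pooled values, coloured points the 4 libraries and dashed lines a 2-fold difference. Most genes lie between 0 and 1, Bst2 lies at -0.56 and -0.89, and Ifitm1, Ifitm3 and Ifitm6 lie past 2.

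Other genes of the pathway came from 5 lists. Of the 20 interferon genes among the features, 15 had no UMI in 34587 cells, and the remaining 5 had 299 UMIs together. Ifnb1 (interferon beta) gave 157 of these, from 79 cells, with up to 21 UMIs in a single cell. Ifnk gave 101, Ifnz 28, Ifng 12 from 3 cells, and Ifna16 1. Both chains of the type I interferon receptor were measured in the main classes. Ifnar1 had 50.3 CPM in Ccr2 monocyte-like and 53.1 CPM in Mrc1 macrophage-like cells, and Ifnar2 had 170 and 140 CPM. None of the 10 receptor and kinase genes was 2-fold higher in Ccr2 monocyte-like cells and 1, Il10rb, was 2-fold lower, with 75.7 against 207 CPM. Of the 10 factors and inhibitors 1, Irf5, was 2-fold higher, with 224 CPM in Ccr2 monocyte-like and 96.2 CPM in Mrc1 macrophage-like cells. None of the 10 nucleic acid sensing genes was past 2-fold. Of the 35 other induced genes 9 were 2-fold higher, among them Ms4a4c (235 CPM in Ccr2 monocyte-like, 22.9 CPM in Mrc1 macrophage-like cells) and Ly6e (1148 and 415 CPM), and 1, the chemokine gene Cxcl10, was 2-fold lower (30.97 and 77.9 CPM). Of all features with at least 10 CPM in either class, 2.72% were 2-fold higher and 5.29% 2-fold lower.

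Per cell, the signal of the summed list was broad in the monocyte-like, Kupffer cell-like and Mrc1 macrophage-like classes and uneven within them. Each cell was thinned to 5000 UMIs, which left out 104 of 4000 Ccr2 monocyte-like and 606 of 6590 Mrc1 macrophage-like cells as too shallow. At least 5 UMIs of the 31 genes were found in 72.9% of Ccr2 monocyte-like cells (71.5 to 74.3%), 68.9% of Ly6c2 monocyte-like cells (66.7 to 71.0%), 72.5% of Kupffer cell-like cells (66.0 to 78.4%), 53.2% of Mrc1 macrophage-like cells (51.9 to 54.5%) and 21.2% of microglia-like cells (18.8 to 23.9%). In erythroid cell-like cells, the class with the lowest list sum, the share was 0.692% (0.189 to 1.76%). Before thinning, 99.9% of Ccr2 monocyte-like and 92.9% of erythroid cell-like cells had at least 1 UMI of the list, at median depths of 17509.5 and 37542 UMIs, so the presence of 1 UMI did not separate the classes. At a depth of 5000 UMIs, 1.93% of Ccr2 monocyte-like cells, 2.57% of Mrc1 macrophage-like cells and 49.0% of erythroid cell-like cells held none.

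The spread between cells was far above that of random sampling, for which the variance equals the mean. The variance of list UMIs per cell divided by their mean was 10.8 in Ccr2 monocyte-like, 16.3 in Ly6c2 monocyte-like, 9.90 in Mrc1 macrophage-like and 10.0 in microglia-like cells. It was 3.17 in Kupffer cell-like, 1.92 in granulocyte-monocyte progenitor-like and 1.26 in erythroid cell-like cells. Library values ran from 7.12 to 12.5 in Ccr2 monocyte-like cells and from 9.19 to 27.1 in Ly6c2 monocyte-like cells. Microglia-like cells depended on library 1, at 17.0 there, against 3.94 to 8.55 in the other 3 libraries. The ratio rises with the mean count, so classes with different list levels cannot be ranked by it. Thinned to 2000 UMIs, Ccr2 monocyte-like cells had a ratio of 5.08.

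The distributions had a single main peak and a long tail with small rises. In bins of 3 UMIs, the peak lay at 3 to 5 UMIs in Ccr2 monocyte-like, Ly6c2 monocyte-like and Mrc1 macrophage-like cells. Beyond it, the largest rise from a bin to the next was 6, 4 and 11 cells in these classes. Whether a small second group lies in the tail was not tested. In Ccr2 monocyte-like cells the median was 8 list UMIs and the maximum 175. Cells with 20 or more list UMIs were 12.7% of Ccr2 monocyte-like, 8.95% of Ly6c2 monocyte-like and 4.46% of Mrc1 macrophage-like cells. The top 10% of cells held 32.0% of list UMIs in Ccr2 monocyte-like cells and 35.6% in Mrc1 macrophage-like cells.

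**Figure D4:**
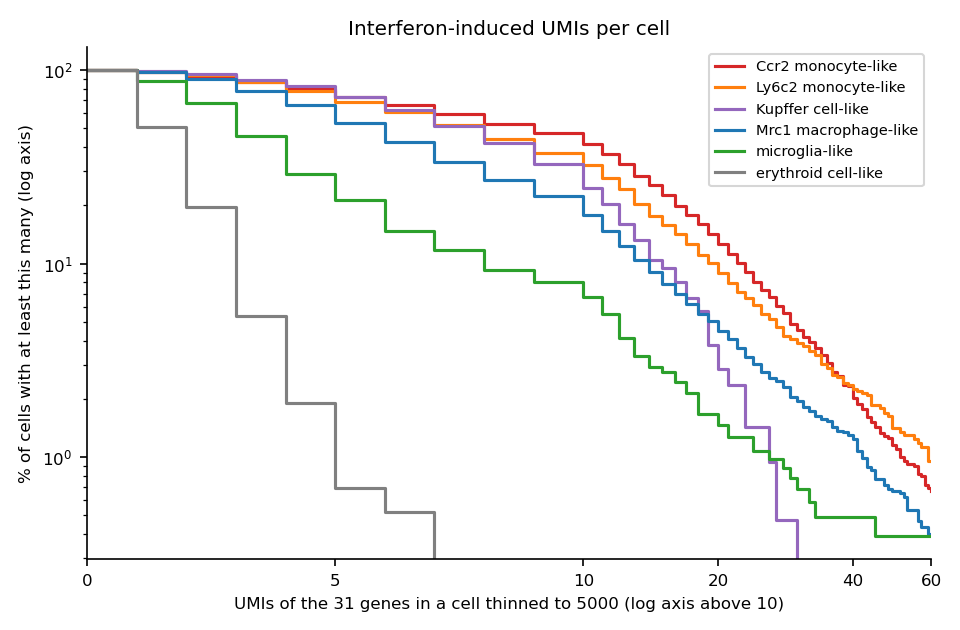
Share of cells (y axis, percent, log axis) with at least a given number of UMIs of the 31 genes (x axis, linear to 10 and log above, drawn up to 60) after thinning each cell to 5000 UMIs, for 6 classes. The curves of the monocyte-like and Mrc1 macrophage-like cells have long tails. Of Ccr2 monocyte-like cells 12.7% reach 20 UMIs, and no erythroid cell-like cell does.

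Set A UMIs lay in fewer cells than those of the whole list. A low mean count alone raises the share of cells with none and the share held by the top 10%. Set A and the list, or classes of different level, therefore cannot be ranked in unevenness by these shares. In Ccr2 monocyte-like cells 60.9% had no set A UMI at 5000 UMIs and 20.7% had 2 or more, and the top 10% of cells held 65.8% of set A UMIs. In Mrc1 macrophage-like cells 77.6% had none, 9.31% had 2 or more, and the top 10% held 81.9%. By library the share with 2 or more was 27.2, 21.1, 14.9 and 17.8% in Ccr2 monocyte-like cells, against 9.37, 9.81, 6.06 and 11.05% in Mrc1 macrophage-like cells. In Kupffer cell-like cells 16.6% had 2 or more, with 25, 14.9, 5.26 and 9.84% in libraries 1 to 4, and 11.02% without library 1. The top 10% of them held 42.9% and none of 211 cells reached 20, with an upper limit of 1.73%. For single genes of Ccr2 monocyte-like cells the variance over the mean was 5.01 for Ifit3, 4.82 for Rsad2 and 3.95 for Isg15, against 1.06 for Irf9 and 1.08 for Oas3. Ifitm1 had a higher variance over the mean than any of the 31 in these cells, at 15.0, with up to 145 UMIs in a cell.

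In Ccr2 monocyte-like cells the set A genes were found together. Among Ccr2 monocyte-like cells with 2 or more UMIs of the other 5 set A genes, Ifit3 was detected in 30.96% (27.7 to 34.4%), and among those with none in 1.82% (1.33 to 2.44%). For Rsad2 the shares were 13.6% and 0.42%, for Ifit1 19.9% and 1.90%, and for Isg15 89.0% and 28.4%. Kupffer cell-like cells did not show this for every gene: Ifit1 was in 1 of 33 such cells (3.03%) and 5 of 114 cells with none (4.39%), and Ifit3 in 17.9% and 16.8%, with wide overlapping intervals.

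Set B, which took no part in the split, was higher in the cells with set A UMIs. In Ccr2 monocyte-like cells set B summed to 3416 CPM in the 805 cells with 2 or more set A UMIs and 1110 CPM in the 2373 cells with none, a ratio of 3.08 (3.04 to 3.12), with log2 library values of 1.51 to 1.64. In Ly6c2 monocyte-like cells the sums were 3814 and 1134 CPM, in Mrc1 macrophage-like cells 3234 and 910 CPM, in microglia-like cells 2612 and 519 CPM, and in Kupffer cell-like cells 2065 and 1067 CPM. The set A high cells were the shallower ones in Ccr2 monocyte-like cells, with a median of 15001 UMIs against 19632 UMIs, and their median mitochondrial share was 2.02% against 2.06%; whether depth plays a part was not tested. With every cell thinned to 5000 UMIs, the median set B count was 16 UMIs in set A high cells and 5 UMIs in set A zero cells.

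In Ccr2 monocyte-like cells, 24 set B genes reached 10 CPM in set A high or set A zero cells. Of these, 20 were at least 2-fold higher in set A high cells on the log2(CPM + 10) scale. The share over all features at that level was 1.17%. Some genes, such as Usp18, reached 10 CPM only in the set A high cells, so the count is a description. Irf7 had 352 CPM in set A high cells and 58.3 CPM in set A zero cells, a log2 difference of 2.41. Oasl2 had 169 and 25.2 CPM, Usp18 83.6 and 8.42 CPM, Slfn5 130 and 19.6 CPM, and Rtp4, a chaperone of receptor transport, 337 and 77.6 CPM. The genes with the smallest differences were Irf9, with a log2 difference of 0.75 (63.3 and 33.7 CPM), Oas2 and Ifi35 at 0.95 each, and Slfn2 at 0.97. Bst2, lower in monocyte-like than in macrophage-like cells, was 2.28-fold higher in set A high cells of this class (524 and 230 CPM). Ifi44 had 37 UMIs in set A high cells and 2 UMIs in set A zero cells.

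The Ifitm genes did not share this pattern to the same degree in monocyte-like cells. Their sum was 4990 CPM in set A high and 3085 CPM in set A zero cells of the Ccr2 class, a log2 difference of 0.69, and Ifitm1 had 331 and 328 CPM. In Mrc1 macrophage-like cells the log2 difference was 1.44, and Ifitm3 there had 1598 CPM in set A high and 270 CPM in set A zero cells. The contrast between the classes was not tested.

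**Figure D5:**
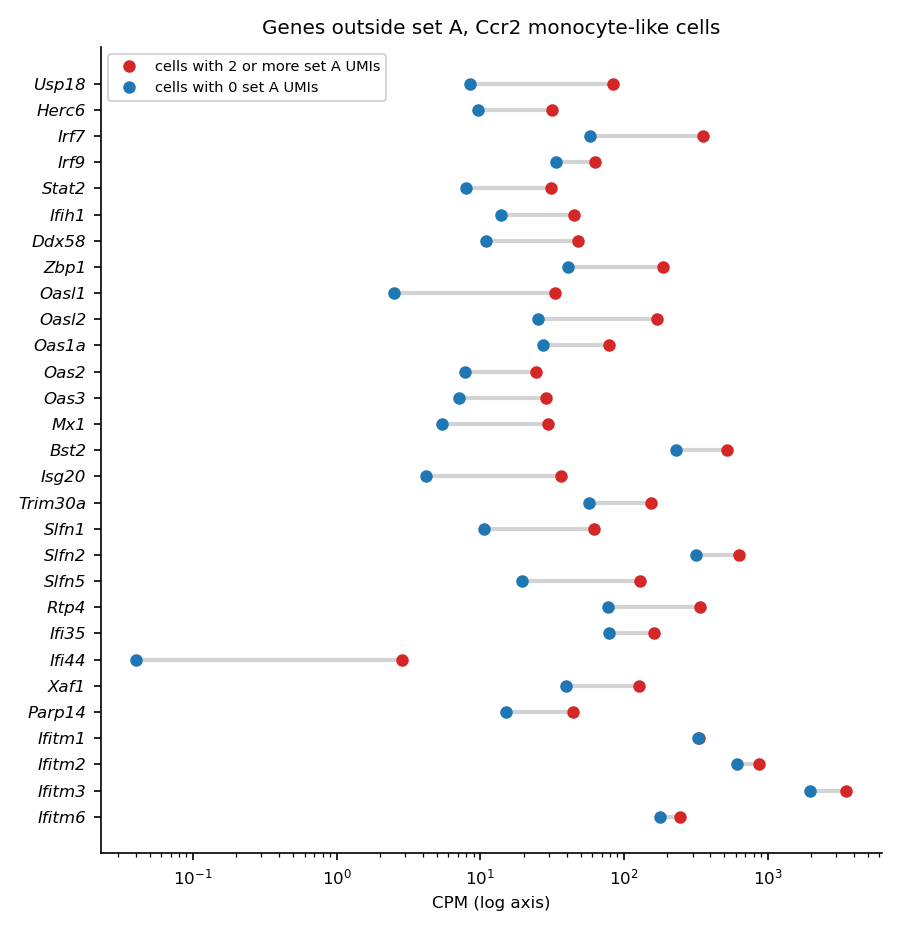
Level (CPM, log axis) of each gene outside set A in Ccr2 monocyte-like cells, in cells with 2 or more set A UMIs (red) and in cells with none (blue), both after thinning to 5000 UMIs for the split. Every set B gene is higher in the red group, whereas Ifitm1 is at 331 and 328 CPM.

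Genes outside the list were also higher in set A high cells. The 10 with the largest differences in Ccr2 monocyte-like cells, among those of at least 50 CPM in set A high cells, were Ifi47, Phf11d, Phf11b, Ifi209, Gbp2, Fcgr4, Ly6a, Ube2l6, Ifi204 and Ms4a4c. They are a description, since that level was required only in the cells where they are high. Of the 2779 genes at that level, 58 were at least 2-fold higher. Ifi47, an interferon-inducible GTPase, had 96.2 CPM in set A high and 12.9 CPM in set A zero cells. Ube2l6, the ISG15-conjugating enzyme, had 85.6 and 20.7 CPM, and Fcgr4, an antibody receptor, 172 and 44.0 CPM. Of the 33 other induced genes at 10 CPM in either kind of cell, 18 were at least 2-fold higher in set A high cells. The share over all features at that level was 1.17%. Some, such as Phf11d with 5.23 CPM in set A zero cells, reached 10 CPM only in set A high cells. This count is a description too. Ifnar1 had 65.2 and 44.7 CPM, a log2 difference of 0.46, and none of the 9 factors and inhibitors at that level was past 2-fold.

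Cells at the far end of the tail were rare. Of 29097 cells with at least 5000 UMIs, 112 (0.385%, 0.317 to 0.463%) held 20 or more set A UMIs, and they carried 21.1% of all set A UMIs. There were 43, 35, 9 and 25 of them in libraries 1 to 4. They made up 0.642% of Ccr2 monocyte-like, 0.788% of Ly6c2 monocyte-like, 0.434% of Mrc1 macrophage-like and 0.294% of microglia-like cells, with overlapping intervals. All 3 of the microglia-like cells came from library 1. None was found among 455 granulocyte-monocyte progenitor-like, 475 neutrophil-like or 578 erythroid cell-like cells, with upper limits of 0.807, 0.774 and 0.636%.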

How the data were processed

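Single-cell 3′ libraries were made with the 10x Genomics Chromium system, per the labels' protocols. The authors deposited UMI counts per gene and barcode, and the matrix names Cell Ranger 3.0.1, per the file headers. Version 2.1.1 and the build mm10 are given in the submitters' processing notes. Cells were kept from 1000 UMIs and 500 genes up, with at most 10% of UMIs mitochondrial, which left out 4461. A gate needs 2 UMIs of both marker genes (20 for hepatocyte and mesenchymal classes), and only cells passing 1 gate entered a class. No doublet caller was run. The 8976 cells passing several gates stayed out of classes. Of doublets this removes only those of unlike cells, and it also drops any single cell with the markers of several classes. It left out 3350 cells passing the Mrc1 and P2ry12 gates. Their 31 genes summed to 1134 CPM and set A to 79.1 CPM, against 1326 and 134 CPM in Mrc1 macrophage-like cells. Of the kept cells, 1151 shared a barcode sequence with another library. Counts were summed per class and scaled to CPM. Differences use log2(CPM + 10), which understates changes of low genes; 2-fold is the call. Per-cell values used cells thinned to 5000 UMIs with a fixed seed. Gene positions and transcript ends came from the GENCODE annotation of GRCm38. Calls, Poisson intervals and the variance over the mean were tested on simulated counts. Thinned list counts were compared with those expected from the unthinned cells. Named genes are all members, genes of the fixed lists at 10 CPM, and the 10 other genes differing most with set A. The receptor and kinase list's count by set A is not reported here. The members and lists were chosen with earlier results of these data known. Alternatives were other gates, cell filters, scaling, pseudocount, thinning depth and leaving out each library. Python 3.11.15, numpy 2.4.6, scipy 1.17.1 and pandas 2.3.3 were used.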

Additional observations from a re-analysis of the deposited data

How the results depend on the processing

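Alternatives were applied to 6 results: the list difference of each monocyte-like class from Mrc1 macrophage-like cells, the number of genes at least 2-fold higher, the share of Ccr2 monocyte-like cells with 5 or more list UMIs, the variance over the mean, and the set B ratio. A reversal of direction was looked for only in the list differences, and none of their alternative values reversed. Of all 65 alternative values, 30 stayed within the interval or within 1.5 times the count, and 35 lay outside. The cause was not tested. For the Ccr2 list difference (0.47), gates of 1 and 4 UMIs gave 0.43 and 0.56, scaling without mitochondrial, ribosomal protein and globin genes 0.56, all 35 genes 1.15, leaving out Bst2 and Slfn2 0.75, equal weight per library 0.44, leaving out cells with 20 or more list UMIs 0.38 and leaving out shared barcodes 0.49. For Ly6c2 (0.31), a gate of 4 UMIs gave 0.32, and the same scaling, gene and weighting choices 0.35, 1.18, 0.51 and 0.34; without the cells of 20 or more UMIs it was 0.25. A pseudocount of 1 CPM gave 11 genes in place of 6, with no share over all features counted on that scale. The share of cells (72.9%) was 71.1% and 75.01% with gates of 1 and 4 UMIs, 34.4% at 2000 UMIs and 41.7% for 10 or more UMIs. The variance over the mean was 5.08 at 2000 UMIs. The set B ratio (3.08) was 3.31 and 2.97 with those gates, 3.33 at 2000 UMIs and 4.05 for 4 or more set A UMIs. Leaving out 1 library at a time gave 0.36 to 0.56, 0.24 to 0.42, 6 to 8 genes, 71.0 to 75.4%, 9.82 to 11.3 and 3.03 to 3.16 for the 6 results. No paired analysis was possible because no library can be tied to a sample or its replicate number; differences within each library stand in the report. Equal weighting, the list without Bst2 and Slfn2, the tail cells and shared barcodes were chosen after seeing the data.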

Other observations

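Cells with the tdTomato transcript, after thinning to 5000 UMIs, were compared with cells of the same class without it. In microglia-like cells the 31 genes summed to 627 CPM in the 696 cells with tdTomato and 901 CPM in the 326 cells without it, a log2 difference of -0.52, with library values of -0.70 to -0.41. Kupffer cell-like cells had 1437 CPM with it and 1663 CPM without it, a log2 difference of -0.21. Ly6c2 monocyte-like cells went the other way, with 1904 and 1596 CPM and a log2 difference of 0.25, which was 0.71 and 0.58 in libraries 1 and 2 and 0.00 and -0.02 in libraries 3 and 4. In Mrc1 macrophage-like cells the sums were 1335 and 1318 CPM, a log2 difference of 0.02, and in Ccr2 monocyte-like cells 1879 and 1820 CPM, a log2 difference of 0.05. The labels do not say which driver line a cell comes from, and a missing tdTomato UMI does not show that a cell was unmarked.

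Cells that passed both the Mrc1 and the Ccr2 gate (1643 cells) had 1750 CPM of the 31 genes and 2419 CPM of the Ifitm genes, between Ccr2 monocyte-like cells (1835 and 3548 CPM) and Mrc1 macrophage-like cells (1326 and 1094 CPM) on both measures. The share of doublets among them was not tested.

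The 79 cells with an Ifnb1 UMI, singled out after their values were seen, had 2473 CPM of the 31 genes, against 1150 CPM in all other kept cells. By class the comparison was uneven: 1645 against 1325 CPM in the 20 Mrc1 macrophage-like cells, 3217 against 1832 CPM in the 7 Ccr2 monocyte-like cells and 5445 against 769 CPM in the 8 cells of no gate. In the 4 Ccr2 monocyte-like cells with 2 or more Ifnb1 UMIs the level was 1088 CPM, below that of cells without it.

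In mast cell or basophil-like cells the Ifitm sum had a higher variance over the mean than in any other class at 5000 UMIs. It was 42.7, with a median of 1 UMI, whereas the 31 genes had a variance over the mean of 1.40.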
